A study of Mus musculus with 8 samples.

Results

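Maternal cells that had trafficked into pups given paternal donor cells in utero (pIUT) were compared with maternal cells from pups that had received no injection. The comparison used 2 of the 8 RNA-sequencing libraries of the series, 1 library for each condition, and 2 of its 4 maternal libraries. The genes described were those with 10 or more estimated counts in both libraries, which were 10359 of the 18408 genes with a count in either. Beside them stood the genes far over the count floor in 1 library only, with 50 or more counts there and under 10 in the other, which were 1790 genes of the uninjected library and 2119 genes of the pIUT library. The T- and B-cell receptor clonotypes of the same libraries were described as well.

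Dams of both groups were CD11c-DTR mice, a C57BL/6-background line that carries the diphtheria toxin receptor (DTR) under the Itgax promoter, mated to BALB/c males. The dams of the pIUT pups were DC controls, given saline rather than diphtheria toxin on embryonic day 13. Their fetuses received 5000000 BALB/c bone marrow mononuclear cells into the liver on embryonic day 14. The uninjected pups came from dams with or without diphtheria toxin, in proportions that the sources do not give, so toxin exposure and injection cannot be told apart for that library. Pups of both groups were nursed by their mothers and were 1 week old at harvest of the whole body. Cells of 5 pIUT pups and of 17 uninjected pups were pooled into 1 library each, after magnetic and flow sorting on the maternal H2K-b antigen, which the F1 pups' own cells also carry beside the paternal H2K-d. With 1 pooled library a side there was no replicate error and no test: every difference below is between these 2 libraries, not between the conditions, and the intervals cover counting error only.

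Maternal microchimerism is the persistence of a mother's cells in her offspring after cells cross the placenta during pregnancy. The cells that cross include leukocytes, and antigen presentation by dendritic cells and B cells on major histocompatibility complex (MHC) class II, which CD4 T cells read, is a main way by which immune cells meet alloantigen. Each B or T cell clone carries its own receptor, made by joining V, D and J gene segments, and the joint, called CDR3, serves as a tag of the clone.

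The uninjected library held 38558603 gene counts and the pIUT library 39477126, with 13068 and 13009 genes at 10 or more counts. Levels are given as CPM, counts scaled to a common library total, with library sizes scaled by the trimmed mean of M-values (TMM), whose factors were 1.009 for uninjected and 1.281 for pIUT. Without that scaling every log2 difference would sit 0.34 higher. The 95% intervals of folds are exact binomial intervals for estimated counts, and reads carried no molecular identifiers. Bounds given below as "at least" compare counts with a floor, and they too treat each read as a separate molecule. How many molecules the reads came from was not measured, so such a bound is no lower limit on the difference between the cells.

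Markers of sex in the pIUT library did not match a pool of a dam's cells alone. The 4 Y-chromosome genes of the list, which a dam's cells lack, were at 0 in the uninjected library, whereas the pIUT library held 408 counts of Ddx3y, 753 of Eif2s3y and 320 of Uty, with Kdm5d at 0. Their summed level was 29.3 CPM in the pIUT library, against 57.4 CPM in the library of the recipient cells of pIUT pups. It was 118 CPM in the maternal library after IUT of maternal donor cells (mIUT) and 29.95 CPM in that of DC-depleted pIUT. Xist, the RNA that coats the inactive X chromosome of female cells, had 2036 counts in the uninjected and 206 in the pIUT library, a level 12.8-fold lower (95% interval 11.1 to 14.9). Y-linked transcripts were thus present in the library labelled maternal pIUT, and which cells carried it was not tested. H2-Ea, a class II gene that C57BL/6 mice do not express and BALB/c mice do, had 0 counts in both maternal libraries and 2728 in the recipient cells of pIUT pups.

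Among the genes with 10 or more counts in both libraries, 1366 (13.2%) were higher in pIUT by 4-fold or more and 1086 (10.5%) were lower by as much, together 23.7%. The median log2 difference was 0.06 and the interquartile range was -0.96 to 1.13. Of the 11334 genes with 50 or more counts in the uninjected library, 15.8% were under 10 counts in pIUT, and of the 11937 such genes in pIUT, 17.8% were under 10 in the uninjected library. With a limit of 3 or fewer counts in place of under 10, the shares were 14.7% and 16.7%. Of genes with 1000 or more counts, 261 of 5018 in the uninjected library (5.2%) and 407 of 6156 in pIUT (6.61%) were under 10 in the other. These shares are the background for each gene list. The libraries differed in opposite ways by lineage: lymphocyte, class II and many monocyte genes were lower in pIUT, and red-cell membrane, cell-cycle, mitochondrial DNA and neural genes were higher.

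**Figure D1:**
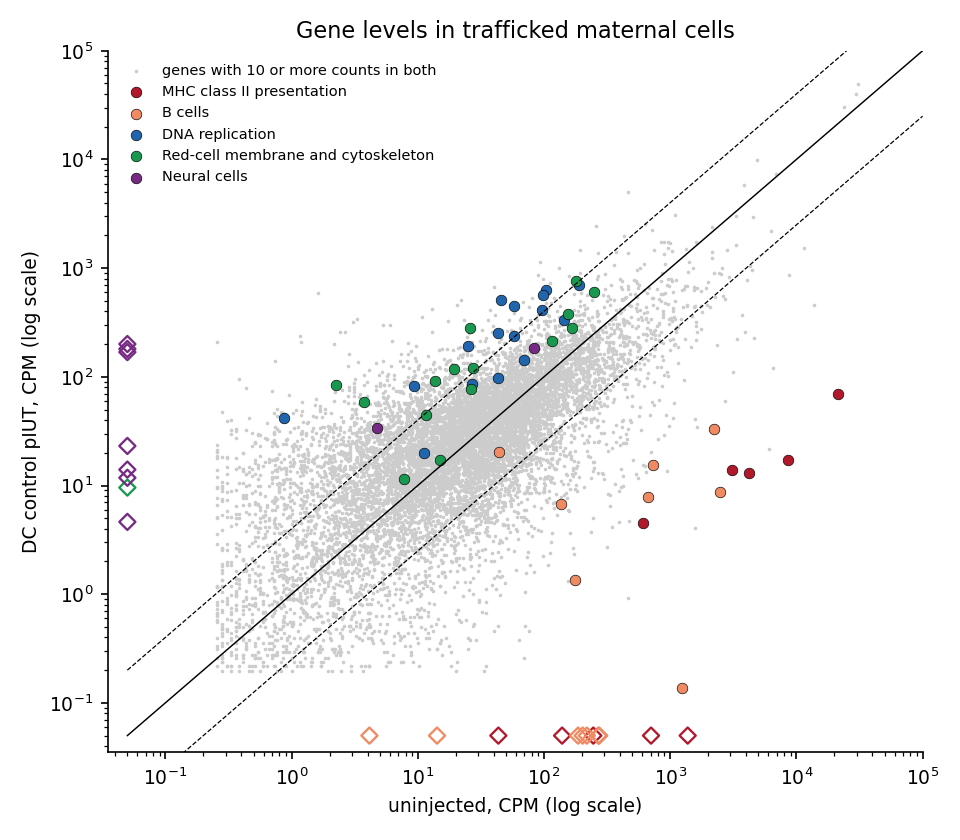
Level of each gene in the uninjected maternal library (x axis, CPM, log scale) and the pIUT maternal library (y axis, CPM, log scale). Grey points are genes with 10 or more counts in both libraries, coloured points are members of 5 gene lists, open diamonds at the edge are members with 3 or fewer counts in 1 library, and lines mark equal levels and 4-fold differences. The MHC class II and B-cell genes lie below the 4-fold line apart from Ebf1, and the DNA replication genes lie above the line of equal levels.

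MHC class II presentation showed the widest gap in summed level among the lists with counts in both libraries. The 11 genes of the list, which encode the class II chains, the invariant chain, the peptide-loading chaperones and their transactivator, summed to 40230 CPM in the uninjected library and to 118 CPM in pIUT, 340-fold lower. The list summed to 467.5 CPM in the maternal library after mIUT and to 152.2 CPM in that of DC-depleted pIUT. The uninjected library was thus the highest of the 4 maternal libraries. H2-Ab1 (chr17:34476663-34488393, GRCm39), the beta chain of I-A, had 335637 counts in the uninjected and 875 in the pIUT library, a 498-fold lower level (467 to 533). H2-Aa, its alpha chain, had 164587 and 659 counts (325-fold lower), and the I-E beta chain H2-Eb1 had 119780 and 701 (222-fold lower). Cd74, the invariant chain that guides class II through the cell, had 823944 and 3519 counts and was 304-fold lower (294 to 315). Each of these chains thus had a measurable level in pIUT.

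The loading genes were lower as well. H2-DMa, the alpha chain of the H2-M chaperone, had 23805 and 230 counts (134-fold lower). H2-DMb2 had 53538 counts in the uninjected library and 0 in pIUT, at least 23200-fold lower when the pIUT value is set to a floor of 3 counts. That bound is one of counts, not of molecules. Ciita, the transactivator that class II promoters require, had 1693 and 0 counts, at least 734-fold lower. H2-Ob, H2-Oa and H2-DMb1 were also at 0 in pIUT. All 5 members with 10 or more counts in both libraries were lower by 4-fold or more, against 10.5% of all genes. Of the 10 with 50 or more counts in the uninjected library, 5 were under 10 in pIUT, against 15.8% of all such genes.

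Promoters of class II chain and loading genes are known for a shared architecture of S, X and Y boxes, the elements at which the complex that recruits Ciita assembles. The Y box letters TGATTGG occurred on either strand in the 200 bases before the start of 6 of the 11 class II genes, against 7.7% of 21770 protein-coding promoters of GRCm39. The shorter letters ATTGG, which the Y box contains, occurred in 7 of the 11 and in 32.3% of all, and the X box letters CTAGCAAC in 2 of the 11 and 1.02% of all. The letters were chosen after several had been tried, and a match describes the sequence only. The promoters of the 3 cell-surface chains are printed because these chains present peptide and were measured in both libraries. They were read from GRCm39 at GENCODE canonical starts, each 5′ to 3′ on the strand of its gene, with the Y box letters in capitals.
H2-Ab1, chr17:34481983-34482182, plus strand: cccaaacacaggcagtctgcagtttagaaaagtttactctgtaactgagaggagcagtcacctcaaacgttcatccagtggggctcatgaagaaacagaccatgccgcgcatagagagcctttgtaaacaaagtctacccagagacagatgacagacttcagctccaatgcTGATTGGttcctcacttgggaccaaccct
H2-Aa, chr17:34506798-34506997, minus strand: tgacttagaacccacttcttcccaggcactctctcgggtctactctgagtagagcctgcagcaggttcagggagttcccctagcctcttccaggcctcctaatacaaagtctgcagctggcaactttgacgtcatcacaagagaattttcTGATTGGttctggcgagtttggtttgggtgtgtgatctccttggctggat
H2-Eb1, chr17:34524613-34524812, plus strand: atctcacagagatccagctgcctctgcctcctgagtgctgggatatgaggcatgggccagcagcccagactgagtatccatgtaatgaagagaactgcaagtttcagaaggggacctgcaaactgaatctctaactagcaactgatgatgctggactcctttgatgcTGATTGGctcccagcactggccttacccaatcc
The capitals begin 29, 50 and 33 bases before the start in H2-Ab1, H2-Aa and H2-Eb1.

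MHC class I, which nearly all nucleated cells display, was lower by a smaller factor. The 12 genes of the list summed to 19270 CPM in the uninjected and 1983 CPM in the pIUT library, 9.72-fold lower. Of the 12, 9 were lower by 4-fold or more, against 10.5% of all genes. H2-K1, which encodes the K heavy chain that the sort selected as H2K-b, had 130802 and 11264 counts (15.1-fold lower, 14.8 to 15.4). H2-D1 had 337798 and 43815 (10.02-fold lower), and B2m, the light chain shared by class I molecules, had 143158 and 18888 (9.85-fold lower). Psmb8, an immunoproteasome subunit, was 12.2-fold lower. Nlrc5, the transactivator of class I genes, lay on the other side, with 112 counts in the uninjected and 899 in pIUT, 6.17-fold higher (5.07 to 7.58). Alleles and near-identical class I and class II paralogs share reads, and the division of such reads among them by the estimation is uncertain.

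B-cell genes were lower as well. The 15 genes of the B-cell list summed to 8878 CPM in the uninjected and 93.7 CPM in the pIUT library, 94.7-fold lower. In the maternal libraries after mIUT and of DC-depleted pIUT the list summed to 494.7 and 64.4 CPM. All 15 had 50 or more counts in the uninjected library, and 8 of them were under 10 in pIUT, against 15.8% of all such genes. Cd79a, a signalling chain of the B-cell receptor, had 96352 counts in the uninjected and 441 in the pIUT library (284-fold lower, 259 to 313). Its partner Cd79b had 87145 and 1665 (68.0-fold lower). Hence B-cell transcripts were measurable in pIUT at both genes.

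Other B-cell genes ranged widely. Ms4a1, which encodes CD20, had 47865 counts in the uninjected and 7 in the pIUT library (8712-fold lower, 4314 to 22110), while Fcer2a, the low-affinity IgE receptor of follicular B cells, had 10664 and 0, at least 4621-fold lower. Ly6d, a surface protein of B-lineage cells, had 60875 and 205 (386-fold lower). Ebf1, a transcription factor that sets B-cell identity from the earliest stages, differed by the least in the list, with 1726 and 1037 counts, 2.16-fold lower.

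Immunoglobulin genes were lower too. Ighm, the mu heavy chain, had 252174 counts in the uninjected and 6069 in the pIUT library (54.0-fold lower), and Igkc, the kappa light chain, had 236139 and 1095 (280-fold lower). Ighd, the delta chain co-expressed with mu on naive B cells, had 40154 counts and 1, at least 17400-fold lower. The lambda constant gene Iglc2 had 32104 and 0, and Iglc3 18115 and 47, although the lambda genes are near copies of each other. Early B-cell genes went both ways. Rag1 (218 counts), which cuts receptor genes, and the surrogate light chain genes Igll1 (329), Vpreb1a (109) and Vpreb1b (88) had counts in pIUT and 0 in the uninjected library, whereas Il7r (2503) and Dntt (254) had counts in the uninjected library and 0 in pIUT. Dntt encodes terminal deoxynucleotidyl transferase, which adds bases at receptor joints.

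T-cell genes were lower in pIUT by smaller factors than B-cell genes. The 16 genes of the T-cell list summed to 2682 CPM in the uninjected and 197 CPM in the pIUT library, 13.6-fold lower. In the maternal libraries after mIUT and of DC-depleted pIUT the list summed to 517.5 and 456.1 CPM. All 11 members with 10 or more counts in both libraries were lower by 4-fold or more, against 10.5% of all genes. The other 5 had 50 or more counts in the uninjected library and under 10 in pIUT. Cd3e (chr9:44910037-44920925), a signalling chain of the T-cell receptor, had 14519 and 1261 counts (14.96-fold lower, 14.1 to 15.9), and Lck, the kinase that starts its signal, had 18112 and 1667 (14.1-fold lower). The co-receptors differed from each other. Cd8a had 2564 counts in the uninjected and 751 in the pIUT library (4.44-fold lower), and Cd4 had 3714 and 0, at least 1609-fold lower. Foxp3, the transcription factor of regulatory T cells, had 271 and 184 counts, 1.91-fold lower (1.58 to 2.32).

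Activation and checkpoint genes of T cells were mostly lower in pIUT. The 15 genes of the list summed to 562.7 CPM in the uninjected and 87.4 CPM in the pIUT library, 6.44-fold lower. Of the 6 with 10 or more counts in both libraries, 5 were below 0 on the log2 scale and 1 above. By 4-fold or more, 3 of the 6 were lower and 0 higher, against 10.5% and 13.2% of all genes. Cd69, an early activation marker, had 7723 and 1466 counts (6.85-fold lower), and the co-stimulatory receptor Tnfrsf18 had 6278 and 184 (44.3-fold lower). Cd28, the main co-stimulatory receptor of naive T cells, had 2055 and 0. Pdcd1, which encodes the checkpoint receptor PD-1, had 825 and 1223 counts, 1.14-fold higher, and Havcr2, which encodes the checkpoint receptor TIM-3, had 0 and 756, at least 194-fold higher. Of the 13 members with 50 or more counts in the uninjected library, 7 were under 10 in pIUT, against 15.8% of all such genes. The reverse held for 1 of 7, against 17.8% of all such genes.

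Natural killer (NK) and cytotoxic genes were lower in pIUT, by factors that differed among granule proteins. The 16 genes of the list summed to 2287 CPM in the uninjected and 347 CPM in the pIUT library, 6.58-fold lower. With TMM scaling all 8 with 10 or more counts in both libraries were below 0, 4 of them by 4-fold or more, against 10.5% of all genes. The other 8 had 50 or more counts in the uninjected library and under 10 in pIUT. Nkg7 had 18219 and 239 counts (99.0-fold lower), the chemokine Ccl5 had 12217 and 137 (116-fold lower), and Prf1, which encodes perforin, had 9492 and 0, at least 4113-fold lower. Gzma, which encodes granzyme A, had 19016 and 7000 counts, 3.53-fold lower. Gzmb, which encodes granzyme B, had 7051 and 7767 and was 1.18-fold lower, a direction that turned without TMM scaling. Granzymes C to G (Gzmc, Gzmd, Gzme, Gzmf and Gzmg), which uterine NK cells and activated lymphocytes express, had 1897, 5226, 1156, 5108 and 3943 counts in the uninjected library and 0 in pIUT, and reads of these near copies may be split among them. In bulk libraries fewer cells of a type and less RNA of a gene per cell cannot be told apart. Ptprc, the leukocyte antigen CD45, had 8924 and 3552 counts, 3.27-fold lower (3.14 to 3.40).

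**Figure D2:**
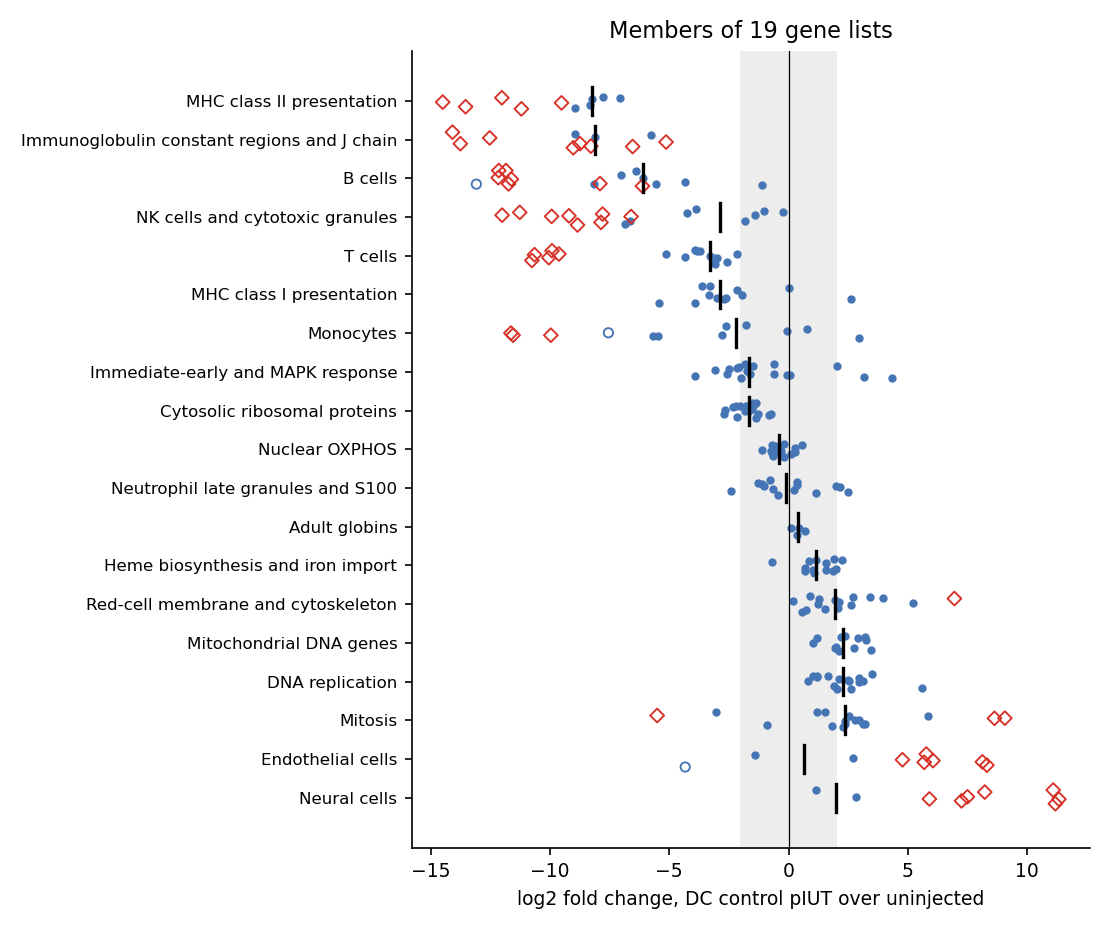
Log2 difference of each member of 19 gene lists, pIUT minus uninjected (x axis). Filled dots have 10 or more counts in both libraries, open circles 4 to 9 counts in 1 library, and red diamonds are bounds against the floor of 3 counts. The black bar is the median of the filled dots only, and the grey band marks differences within 4-fold. MHC class II and B-cell genes lie far to the left, DNA replication genes to the right, and adult globins within the band.

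Dendritic-cell genes were of interest because the CD11c-DTR line allows CD11c cells to be removed. Itgax (chr7:127728668-127749829), which encodes CD11c itself, had 409 counts in the uninjected and 611 in the pIUT library, 1.15-fold higher (1.01 to 1.31). Flt3, the growth factor receptor of dendritic-cell precursors, had 1437 and 0 counts, the migration receptor Ccr7 3285 and 0, and Cd209a 3127 and 0. Irf8, which dendritic cells and monocytes require, had 16357 and 496 (42.9-fold lower). On the other side were Fscn1, an actin bundler of mature dendritic cells, with 196 and 4126 counts (16.2-fold higher), Sirpa, a marker of cDC2 and other myeloid cells, with 960 and 6752 (5.41-fold higher), and Zbtb46, with 208 and 1063 (3.93-fold higher). Accordingly, of the 9 dendritic-cell genes with 50 or more counts in the uninjected library 4 were under 10 in pIUT, against 15.8% of all such genes. Of the 5 with 10 or more in both, 2 were higher by 4-fold or more and 1 lower, against 13.2% and 10.5% of all genes. Fscn1 is also made by neural cells, and Sirpa by neurons. The neural list was higher in pIUT as given below, and its part in these values was not tested.

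Monocyte genes were mostly lower in pIUT. Ly6c2, which encodes a Ly6C antigen of inflammatory monocytes, had 12875 and 330 counts (50.7-fold lower), the chitinase-like gene Chil3 had 104824 and 3045 (44.8-fold lower), and the chemokine receptor Ccr2 had 6937 and 0. Cd14, the co-receptor for lipopolysaccharide, had 5137 and 51196 counts, 7.67-fold higher (7.45 to 7.89). Of the 8 monocyte genes with 10 or more counts in both libraries, 6 were below 0 and 2 above. By 4-fold or more, 4 were lower and 1 higher, against 10.5% and 13.2% of all genes. Of the 12 with 50 or more counts in the uninjected library, 4 were under 10 in pIUT, against 15.8% of all such genes. Macrophage genes were mixed as well. Of the 16, 7 had 10 or more counts in both libraries, with 4 lower and 0 higher by 4-fold or more, against 10.5% and 13.2% of all genes. With 50 or more counts in the uninjected library, 3 of 10 were under 10 in pIUT, against 15.8% of all such genes. The reverse held for 5 of 12, against 17.8% of all such genes. The scavenger receptor genes Mrc1 (0 and 375), Marco (0 and 317) and Cd163 (0 and 180) were of the latter kind, and Cd5l (3715 and 0) of the former. The complement gene C1qb had 11269 and 654 counts (22.4-fold lower), Adgre1, which encodes F4/80, 3908 and 1115 (4.56-fold lower), Cd68 6119 and 8646 (1.09-fold higher) and the heme oxygenase gene Hmox1 825 and 3838 (3.58-fold higher).

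Most neutrophil late-granule genes lay within 4-fold, as did most genes of the 2 libraries. All 14 had 10 or more counts in both libraries and 11 of them lay within 4-fold. By 4-fold or more, 2 were higher and 1 lower, against 13.2% and 10.5% of all genes. The median log2 difference was -0.11, a sign that turned without TMM scaling (0.24). The calprotectin genes S100a8 and S100a9 had 39956 and 38348 counts and 37065 and 23692 counts. Fpr1, the formyl-peptide receptor, had 401 and 2957 counts (5.67-fold higher), Cxcr2, the receptor for neutrophil chemokines, 636 and 3709 (4.49-fold higher), and Mmp9, gelatinase B, 4156 and 21512 (3.98-fold higher), whereas Retnlg had 17707 and 4352 (5.29-fold lower). Mast-cell protease genes were at 0 in pIUT, with 4525 counts of Tpsb2 and 3618 of Cma1 in the uninjected library, while the eosinophil granule genes Prg2 and Epx had 103 and 1198 and 0 and 311 counts.

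Single cytokine and chemokine genes stood far above equality, while the members of the cytokine list differed in direction. Tnf (chr17:35418357-35420983) had 129 counts in the uninjected and 17342 in the pIUT library, 103-fold higher (87.0 to 124). Il1b, interleukin-1 beta, had 3648 and 58116 counts, 12.3-fold higher. Ccr1, a receptor for inflammatory chemokines, had 2979 and 22244 (5.74-fold higher). Cxcl3, a neutrophil chemokine, had 45 and 12084 counts (206-fold higher), and Ptgs2, which encodes the inducible cyclooxygenase, had 29 and 7030 (186-fold higher). Of the 18 alloresponse cytokines, however, 7 had 10 or more counts in both libraries, with a median log2 difference of -1.04. By 4-fold or more, 2 of them were higher and 1 lower, against 13.2% and 10.5% of all genes. The list summed to 248.1 and 1535 CPM, 6.18-fold higher, so its sum and its median differ in sign. Of the 11 with 50 or more counts in the uninjected library, 4 were under 10 in pIUT, against 15.8% of all such genes, and none was the other way round. Ifng, interferon gamma, had 695 and 363 counts, and Tgfb1, transforming growth factor beta, 3994 and 1175 (4.42-fold lower). Further inflammatory genes were looked up after these values had been seen. Il1a had 0 and 5428 counts, at least 1392-fold higher, the interleukin-1 receptor antagonist Il1rn 862 and 25940 (23.2-fold higher), the chemokines Cxcl2 1562 and 33767 (16.6-fold higher) and Ccl3 4316 and 36843 (6.57-fold higher), and the inflammasome sensor Nlrp3 68 and 2171 (24.5-fold higher).

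Immediate-early genes, which respond to stimulation within minutes, went mostly the other way. Of 18 on the list, 14 were lower in pIUT, 7 of them by 4-fold or more, against 10.5% of all genes, with a median log2 difference of -1.67. Fos had 88338 and 27560 counts (4.17-fold lower), while Egr3 had 65 and 1726 (20.4-fold higher) and Ier3 1583 and 18649 (9.06-fold higher). The inducible heat-shock genes Hspa1b and Hspa1a, near copies of each other, had 138294 and 2 counts and 94071 and 1 count, the former at least 59920-fold lower. Of 16 type I interferon genes, 9 had 10 or more counts in both libraries. By 4-fold or more, 2 of them were higher and 2 lower, against 13.2% and 10.5% of all genes. The antiviral sensor Oas1a had 3922 and 476 counts and the signal transducer Stat2 had 30 and 2222.

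Red-cell genes separated the globins from the rest. The 4 adult globin genes lay within 4-fold, with log2 differences from 0.09 to 0.70 and a summed level of 90830 CPM in the uninjected and 127700 CPM in the pIUT library. Of the 16 red-cell membrane and cytoskeleton genes, 15 had 10 or more counts in both libraries, with a median log2 difference of 1.94. By 4-fold or more, 7 of those 15 were higher, against 13.2% of all genes. Add2, a beta-adducin that links spectrin to actin, had 88 and 4287 counts (37.4-fold higher, 30.4 to 46.8) and Sptb, the erythroid beta spectrin, 146 and 2970 (15.6-fold higher). Slc4a1, the band 3 anion exchanger, had 7022 and 38584 (4.23-fold higher), and Ank1, ankyrin of the red cell, had 1 and 484. Add2 and Sptb are also expressed in neurons, whose genes were higher in pIUT, and the part of those cells was not tested.

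Heme and maturation genes shared that direction by smaller factors. Of the 13 heme and iron import genes 12 were above 0 on the log2 scale, with a median of 1.15, and 1 was higher by 4-fold or more. Of the 15 maturation genes with 10 or more counts in both libraries 13 were above 0, with a median of 1.48. By 4-fold or more, 2 of these 15 were higher, against 13.2% of all genes. Fech, ferrochelatase, had 7462 and 45315 counts (4.67-fold higher), and Alas2, the first enzyme of erythroid heme synthesis, 14556 and 71098 (3.76-fold higher). Of the embryonic globins, Hba-x had 0 and 1598 counts, Hbb-y 46 and 438 (7.31-fold higher, 5.40 to 10.2) and Hbb-bh1 38 and 0. Hba-x and Hbb-y, made by primitive red cells of the embryo, thus had more counts in pIUT, and Hbb-bh1 fewer. Stem and progenitor genes went both ways. Of 14, 6 had 10 or more counts in both libraries, with 4 of them below 0 and a median log2 difference of -1.61. By 4-fold or more, 2 of the 6 were lower and 1 higher, against 10.5% and 13.2% of all genes. With 50 or more counts in 1 library and under 10 in the other, 2 were of the uninjected library and 2 of pIUT. Ly6a, which encodes the stem cell antigen Sca-1, also present on lymphocytes, had 24436 and 765 counts (41.5-fold lower), and Runx1, a transcription factor of blood formation, 1132 and 186 (7.91-fold lower). Kit, the stem cell factor receptor, had 171 and 2187 counts (9.83-fold higher), and Meis1, a transcription factor of stem cells and megakaryocytes, 0 and 2256.

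Cell-cycle genes were higher in pIUT with few exceptions. All 16 DNA replication genes lay above 0 on the log2 scale and 10 of them were higher by 4-fold or more, against 13.2% of all genes, with a median log2 difference of 2.30. Mcm2 (chr6:88860452-88875762), a subunit of the replicative helicase, had 1776 and 25953 counts (11.2-fold higher), and its partner Mcm6 had 4004 and 31595 (6.07-fold higher). Pola1, which primes new strands, had 34 and 2134 (48.1-fold higher), and Gins2 had the smallest gap, with 439 and 1002 (1.76-fold higher). Uhrf1, which brings the maintenance methyltransferase to newly made DNA, had 46 and 10647 (178-fold higher).

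Mitosis genes were less uniform. Of 17, 14 had 10 or more counts in both libraries, with 9 higher and 1 lower by 4-fold or more, against 13.2% and 10.5% of all genes. Ccnb1, cyclin B1, had 1794 and 13669 counts (5.86-fold higher) and the spindle checkpoint kinase Bub1b 111 and 8208 (56.8-fold higher). Bub1 had 0 and 2099. Cenpf, a kinetochore protein, lay on the other side with 204 and 32 counts (8.26-fold lower), and Mki67, the proliferation marker Ki-67, was low in both libraries with 57 and 40.

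Genes of the mitochondrial genome and of the ribosome differed in opposite directions. Of 13 protein-coding genes of mitochondrial DNA, 12 had 10 or more counts in both libraries. Of these, 9 were higher in pIUT by 4-fold or more, against 13.2% of all genes. The list summed to 2435 and 12100 CPM, 4.97-fold higher. mt-Cytb had 10105 and 124717 counts (9.50-fold higher) and mt-Nd5 1451 and 21035 (11.2-fold higher), whereas mt-Co3 was 2.01-fold higher. The 18 nuclear genes of oxidative phosphorylation showed no such gap: none was past 4-fold in either direction, and the median log2 difference was -0.40. All 18 cytosolic ribosomal protein genes were lower in pIUT, 6 of them by 4-fold or more, against 10.5% of all genes, with a median of -1.67. Rpl3 had 68220 and 13793 counts (6.43-fold lower) and Rpl13 171973 and 48985 (4.56-fold lower). Genes often taken as references were lower too, as seen after the lists had been computed: Actb had 246887 and 110996 counts (2.89-fold lower) and Gapdh 59683 and 33723 (2.30-fold lower).

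**Figure D3:**
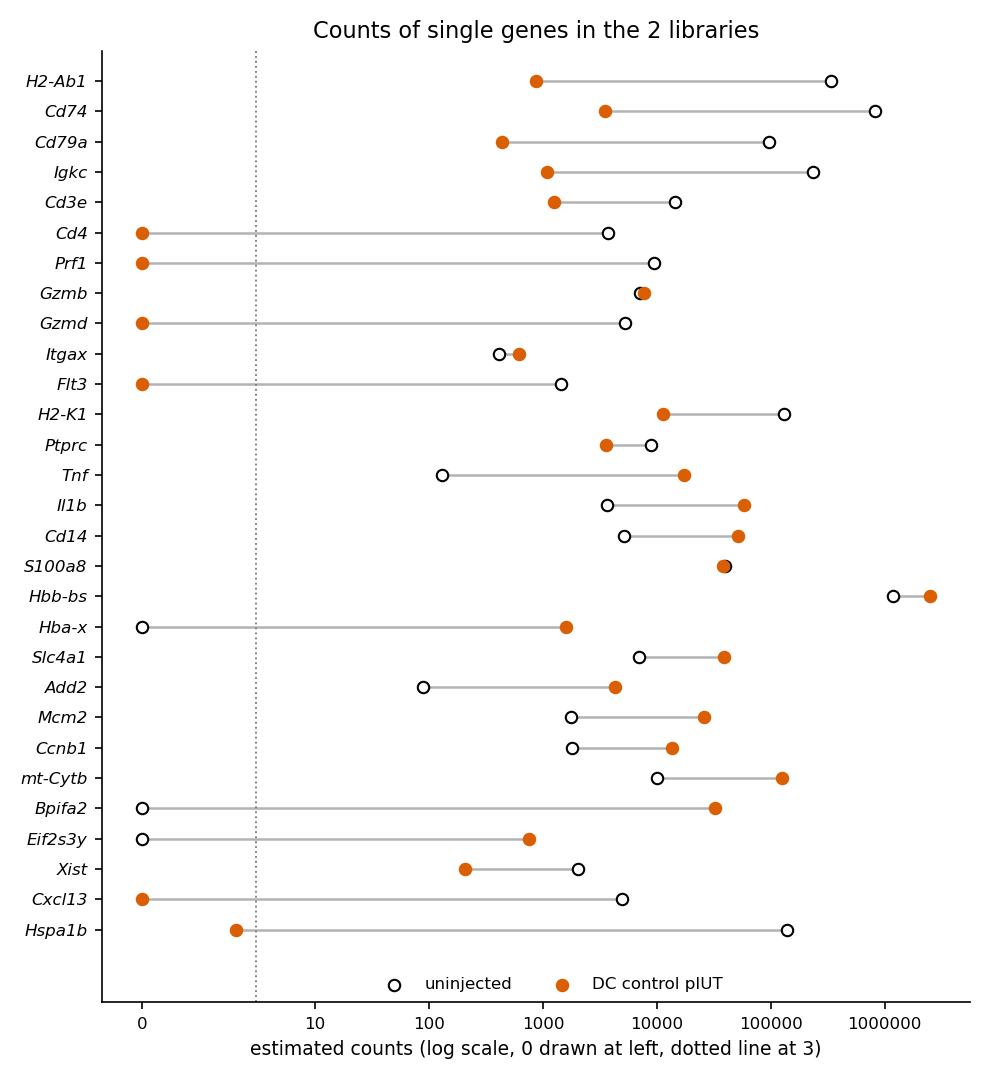
Estimated counts of selected genes in the uninjected and the pIUT maternal library (x axis, log scale, with 0 drawn at the left edge; 1 line per gene). The dotted line marks 3 counts, the floor for bounds. Class II, B-cell and T-cell genes have more counts in the uninjected library, and Mcm2, Add2, Tnf and Bpifa2 have more in pIUT.

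Genes of non-hematopoietic cells were present in the pIUT library at high counts. Cells were taken from the whole body and sorted on H2K-b, an antigen not limited to blood cells. Of the 9 neural genes, 7 had 0 counts in the uninjected library and 50 or more in pIUT, and the list summed to 88.2 and 822 CPM, 9.32-fold higher. The neuronal tubulin Tubb3 had 0 and 9130 (at least 2341-fold higher), and Stmn2, a neuronal growth protein, 0 and 8537 (at least 2189-fold higher). Myelin basic protein, Mbp, was measured on both sides with 3247 and 9345 counts (2.21-fold higher), as was the astrocyte filament gene Gfap with 186 and 1728 (7.14-fold higher).

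The recipient cells of the same pIUT pups held far fewer of these transcripts, with 515 counts of Tubb3 and 72 of Stmn2, and a summed neural level of 73.4 CPM. The other maternal libraries of the series summed to 35.7 CPM after mIUT and to 61.9 CPM after pIUT in DC-depleted dams. The neural level of the maternal pIUT library was therefore the highest of these 5 libraries. Several genes with the largest counts in pIUT against none in the uninjected library belong here as well, among them Crmp1 (12263 counts), which acts in axon guidance, Gpm6a (11996), a neuronal membrane glycoprotein, the neuronal differentiation factor Neurod1 (9456) and the glial glutamate transporter Slc1a3 (9088). Ptprs, a receptor phosphatase of axons, had 10 and 10620 counts, 808-fold higher (444 to 1704), and the imprinted neuronal gene Nnat 63 and 30065, 367-fold higher.

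Some genes known from salivary glands, for which no list was made, had counts in pIUT alone. Bpifa2, a secreted protein of the parotid gland, had 0 counts in the uninjected and 32392 in the pIUT library (at least 8307-fold higher), and Smgc, a mucin-like protein of the sublingual and submandibular glands, 0 and 18682 (at least 4791-fold higher). The Dcpp1, Dcpp2 and Dcpp3 genes, near copies expressed in the same glands and looked up after these values had been seen, had 0 counts in the uninjected library and 1895, 1665 and 1063 in pIUT. Bpifa2 had 19 counts and Smgc 0 in the recipient cells of pIUT pups, far fewer than in the maternal library for both genes.

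Other tissue markers varied in size. The 12 mesenchymal genes summed to 23.7 and 243 CPM, 10.2-fold higher in pIUT, with Sparc at 394 and 5985 counts (11.7-fold higher) and Pdgfra at 0 and 2101. Of the 8 endothelial genes with 50 or more counts in pIUT, 6 were under 10 in the uninjected library, against 17.8% of all such genes. They included the receptor Kdr (0 and 1092) and the lymphatic marker Lyve1 (1 and 1246), and the list summed to 46.4 and 91.6 CPM. Hepatocyte genes summed to 255 and 283 CPM, a small gap. Of the 9 with 10 or more counts in both libraries, 4 were higher by 4-fold or more, against 13.2% of all genes. An example was the transport protein Ttr with 35 and 713 counts (15.6-fold higher). Imprinted growth genes are active in fetal tissues. Of 10 with 50 or more counts in pIUT, 5 were under 10 in the uninjected library, against 17.8% of all such genes. They included Peg3 (0 and 844) and Plagl1 (0 and 989), whereas H19 had 1500 and 1603. Transcripts of other tissues moved together with the lower leukocyte levels, and their part in those levels was not tested.

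Lymphoid stroma chemokine genes did not share a direction. Cxcl13, the chemokine that draws B cells into follicles, had 4985 counts in the uninjected library and 0 in pIUT, and its receptor Cxcr5 had 6347 and 0. Cxcl12, which retains blood cells in marrow, had 89 and 553 counts (4.78-fold higher), and the adhesion molecule gene Madcam1 had 0 and 186. Of the 14 chemokine receptor genes with 50 or more counts in the uninjected library, 8 were under 10 in pIUT, against 15.8% of all such genes. Fcmr, the receptor for IgM, and Gimap3, a lymphocyte GTPase, had 35506 and 29333 counts in the uninjected library and 0 in pIUT, placing lymphocyte genes among the highest counts that the pIUT library lacked.

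**Figure D4:**
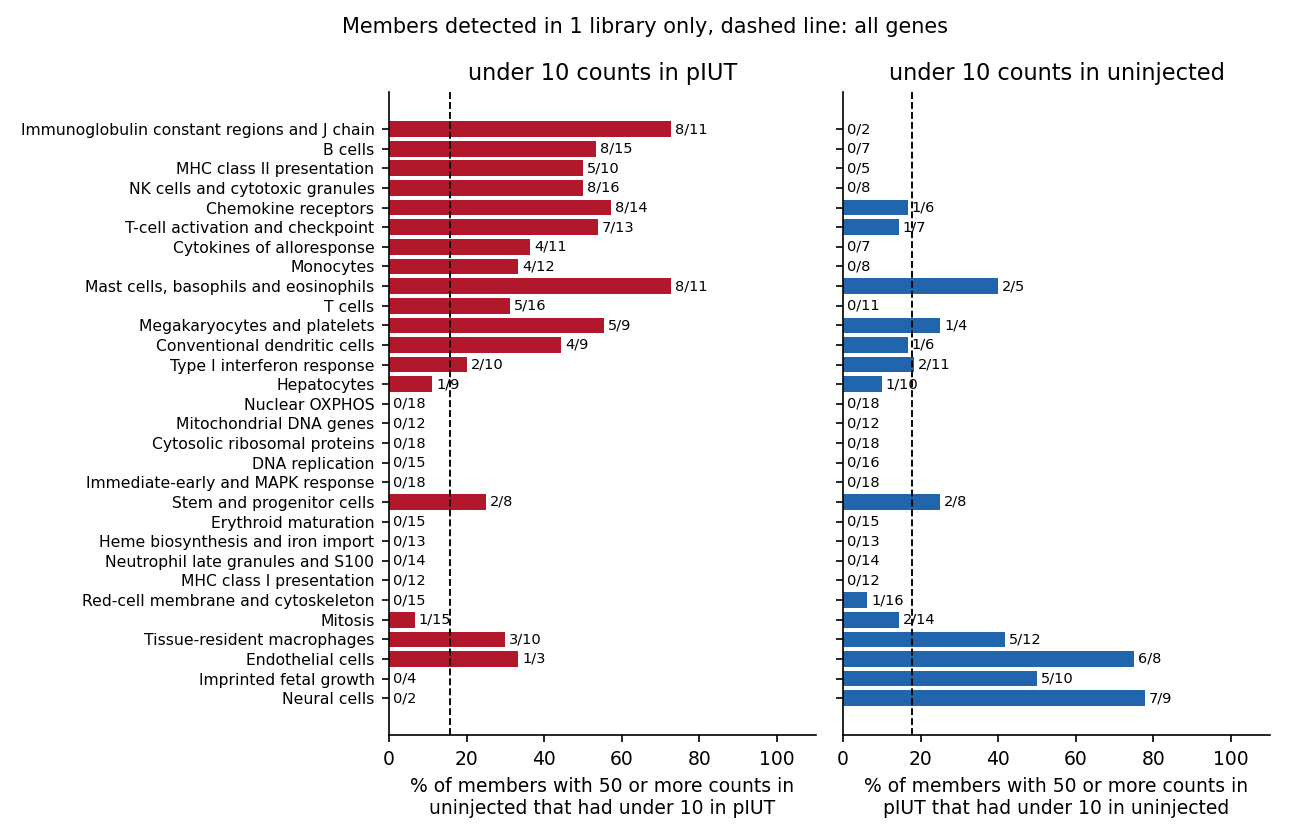
Share of each gene list's members (30 lists) with 50 or more counts in 1 library that had under 10 in the other (x axis, percent), with the number of members beside each point. Dashed lines mark the shares over all genes, 15.8% for genes of the uninjected library and 17.8% for genes of the pIUT library. B-cell, NK and mast-cell lists exceed the line on the uninjected side, and neural and endothelial lists on the pIUT side.

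The receptor clonotypes were assembled from reads of the same 2 libraries and are not separate support for the gene counts. A clonotype here is a CDR3 with its segments as the clonotype table lists it. The uninjected library held 4429 clonotypes in 348684 receptor reads and the pIUT library 32 clonotypes in 3749 reads. Per gene count, receptor reads were 95.2-fold lower in pIUT. B-cell receptor reads were 167-fold lower and T-cell receptor reads 13.5-fold lower. These ratios use unscaled gene counts and are not on the scale of the gene folds.

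The makeup of the reads differed with it. T-cell receptors took 46.8% of receptor reads in pIUT (95% Wilson interval 45.2 to 48.4, 1754 reads in 17 clonotypes) and 6.65% in the uninjected library (6.57 to 6.74, 23200 reads in 845 clonotypes). Kappa light chains made up 71.2% of reads in the uninjected library and 27.8% in pIUT, and T-cell receptor beta chains 4.47% and 38.5%. Lambda, delta and gamma chains were at 0 of 3749 reads in pIUT, and 3 reads, the limit that a count of 0 allows, are a share of 0.0800%. For delta and gamma chains, at 0.0740% and 0.0769% in the uninjected library, that depth could not show a difference. Lambda chains made up 8.32% of reads there but 2.35% of clonotypes. With 32 clonotypes in pIUT, 8 of them kappa, an absence of lambda chains could not show a difference either. The 5 largest clonotypes took 53.8% of reads in pIUT (52.2 to 55.4) and 7.68% in the uninjected library (7.59 to 7.77).

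**Figure D5:**
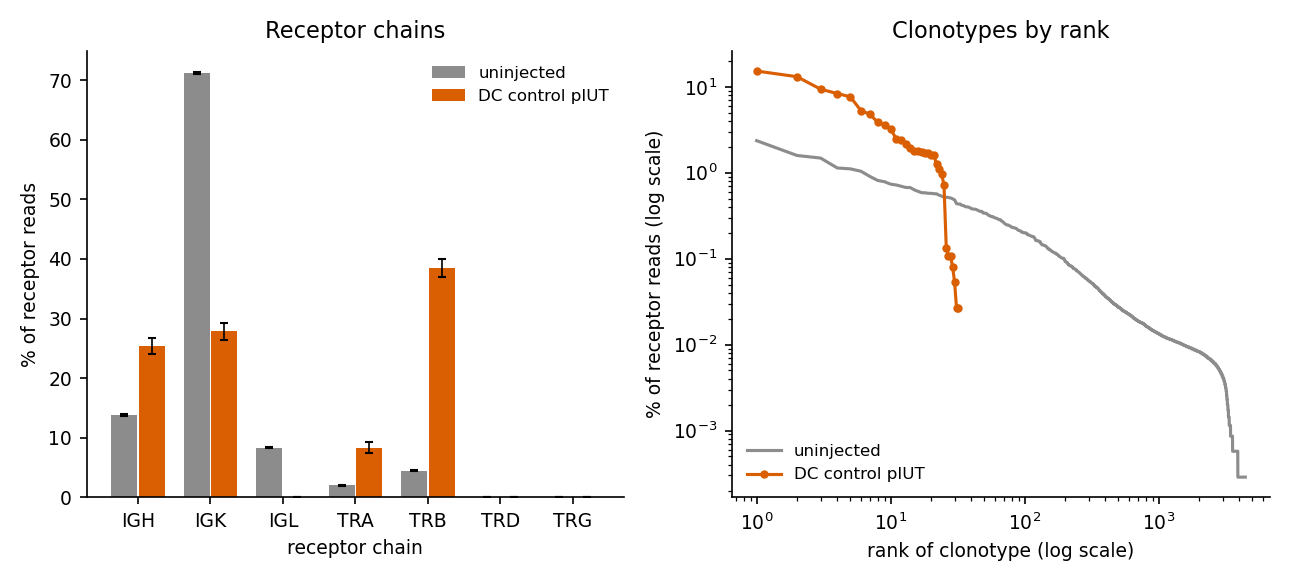
Share of receptor reads by chain in the uninjected and the pIUT maternal library with 95% Wilson intervals (left), and clonotype size as a share of reads against rank, both on log scales (right). T-cell receptor beta chains take 38.5% of the 3749 reads in pIUT and 4.47% of the 348684 in the uninjected library, and the largest clonotype takes 15.3% and 2.36%.

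The largest receptors of each library are printed because they show what the reads consist of. Each CDR3 is given 5′ to 3′ with the conserved first and last codon in capitals, as the clonotype tables list it. The 3 largest of pIUT were a heavy chain of 572 reads and T-cell receptor beta chains of 492 and 352 reads, and none of these CDR3s was listed in the uninjected library.
IGHV5-6 with IGHJ3: TGTgcaagacataggtacTGG
TRBV17 with TRBJ2-1: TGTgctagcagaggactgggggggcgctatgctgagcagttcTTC
TRBV13-2 with TRBJ2-3: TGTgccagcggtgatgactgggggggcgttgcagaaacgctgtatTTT
The 5 largest clonotypes of the uninjected library were all light chains, of 8235, 5539, 5167, 3962 and 3869 reads, in this order.
IGKV1-117 with IGKJ2: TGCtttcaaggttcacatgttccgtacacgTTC
IGKV6-15 with IGKJ2: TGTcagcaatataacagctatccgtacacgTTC
IGLV2 with IGLJ2: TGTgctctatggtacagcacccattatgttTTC
IGLV1 with IGLJ1: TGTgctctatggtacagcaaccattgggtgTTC
IGKV10-96 with IGKJ1: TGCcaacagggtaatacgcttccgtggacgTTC

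Both libraries listed 5 CDR3 nucleotide sequences in common, all kappa chains, which is 18.5% of the 27 distinct CDR3s of pIUT and 0.137% of the 3659 of the uninjected library. They held 871 reads (23.2%) in pIUT and 5551 (1.59%) in the uninjected library. Kappa joints add few bases, so the same joint can arise in unrelated cells. In the order printed they had 314 (1 of them listed under IGKV1-133), 287, 121, 89 and 60 reads in pIUT and 2044, 22, 3157, 305 and 23 in the uninjected library.
IGKV1-135 with IGKJ1: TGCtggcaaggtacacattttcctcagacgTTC
IGKV11-125 with IGKJ2: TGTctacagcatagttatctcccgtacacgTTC
IGKV14-126 with IGKJ2: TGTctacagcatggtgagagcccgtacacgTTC
IGKV8-30 with IGKJ5: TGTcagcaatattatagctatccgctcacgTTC
IGKV5-39 with IGKJ5: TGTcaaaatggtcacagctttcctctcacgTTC
Their order by size differed between the libraries: the IGKV11-125 joint was among the larger in pIUT and had few reads in the uninjected library.

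Heavy chains of pIUT were all mu, in 7 clonotypes and 951 reads, against 83.3% mu, 15.2% delta and smaller shares of alpha and gamma among the heavy-chain reads of the uninjected library. Their CDR3s had a median of 33 bases in pIUT and 42 in the uninjected library. Added bases at the joints, a measure chosen after the clonotypes had been seen, were absent from 4 of 5 distinct heavy-chain CDR3s in pIUT and from 4.10% of 1488 in the uninjected library, where the median was 6. T-cell receptor joints did not share this: 0 of 7 beta joints and 1 of 7 alpha joints of pIUT lacked added bases, against 13.8% and 22.8% in the uninjected library. Of these 7 alpha joints, 3 differed only in the length of a run of C and may be 1 sequence. Among the 7 beta joints, the TRBV17 joints of 492 and 4 reads likewise differed only in the length of a run of G. The other maternal libraries of injected pups had 0 added bases in 4 of 7 (mIUT) and 11 of 16 (DC-depleted pIUT) distinct heavy-chain CDR3s, and in 2 of 7 and 154 of 281 beta joints. With 5 sequences in pIUT, these shares rest on single clonotypes.

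An alpha chain of the invariant kind was found in pIUT. TRAV11 joined to TRAJ18 forms the invariant receptor of CD1d-restricted NKT cells, and pIUT listed it in 64 of 312 alpha reads. These were 1 CDR3 under 2 V calls, with 63 reads under TRAV11D and 1 under TRAV11N, and it is printed because its joint is the recurrent one of this lineage.
TRAV11D with TRAJ18: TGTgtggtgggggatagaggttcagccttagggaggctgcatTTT
The uninjected library listed no such join among 7074 alpha reads, although TRAJ18 occurred there in 3 clonotypes of 70 reads with other V segments. The maternal mIUT and DC-depleted pIUT libraries listed none either.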

How the data were processed

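RNA of sorted maternal cells was sequenced by the authors from 1 pool of pups per condition. The deposited gene table holds estimated counts per gene on GRCm39 and is named for salmon, whereas the methods name featureCounts. StringTie and bcl2fastq appear in the submitters' processing notes, with versions not given in the sources used here. The deposited clonotype tables hold MiXCR counts of reads per clonotype and each clonotype's fraction of the table, as the authors made them. Estimated counts were rounded to whole numbers. All 52784 genes were kept in library sizes, which TMM in edgeR 4.0.16 (R 4.3.3) scaled. Fold changes came from edgeR with a prior count of 0.125 and a fixed dispersion of 0.4, without tests. Genes needed 10 or more counts in both libraries to be counted as higher or lower and 50 in 1 library to be called absent (under 10) from the other, a library at 4 to 9 counts gave a ratio with its interval, and one at 3 or fewer a bound against 3 counts. Intervals are exact binomial for folds and Wilson for shares, at 95%. Identifiers matched the annotation for 97.99%. The 43 gene lists hold 520 entries, 519 of them in the table. Members and lists were chosen with earlier results of these data known. Genes were named by rule: the 10 most extreme folds and the 10 highest bounds in each direction, the 4 members of each list with the highest CPM and those with the extreme folds, every member of short lists, and Itgax, Cd3e, Foxp3, Ptprc, H2-K1, H2-D1 and H2-Ea, leaving out receptor segments and predicted genes, and some genes are not reported here; others were chosen after their values were seen. The procedure was tested on simulated data. Alternatives were other scalings (DESeq2 1.42.0 size factors among them), prior counts, count minimums, fold thresholds and clonotype filters. Clonotype tables and figures used Python 3.11.15, pandas 2.3.3, scipy 1.17.1 and matplotlib 3.10.9.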

Additional observations from a re-analysis of the deposited data

How the results depend on the processing

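Each library was a pool without replicates, so animal-to-animal spread is unknown, and pool size, sort purity and treatment cannot be told apart, while total gene counts were nearly equal. No paired analysis was possible because each group had 1 library. The count of genes higher by 4-fold or more (1366) became 4772 with no count filter, 2835 at a 2-fold threshold and 626 at an 8-fold threshold; the count of genes lower (1086) became 4977, 2508 and 478. Scaling by library size alone gave 1741 higher and 812 lower, so that the share of calls that were higher went from 55.7% to 68.2%. No named gene past 4-fold changed direction under another scaling, but library size alone turned the sign of 9 named genes nearer to equality, among them Gzmb and H19, and of the late-granule list. A minimum of 50 counts moved 4 of 39 list medians and turned the sign of 1, that of the chemokine receptors. The T-cell receptor share of pIUT was 49.3% over productive clonotypes and 53.1% when each clonotype counted once, and that of the uninjected library 6.56% and 19.1%. The effective number of clonotypes was 940.6 in the uninjected library and 17.9 in pIUT, and 304.8 and 13.2 at order 2.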
